A study of Mus musculus with 5 samples.

Results

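The Hox genes, the homeobox genes of the HoxA, HoxB, HoxC and HoxD clusters, were followed across 5 two-colour arrays of mouse embryonic stem cells on the way to heart cells. Members were taken from the array probes whose name in the deposited files was Hox, a cluster letter and a number. The members described are 50 of the 28845 gene probes and stand for 35 of the 14962 genes named on the array. Of these HoxA had 10 genes and 17 probes, HoxB 10 genes and 14 probes, HoxC 6 genes and 7 probes, and HoxD 9 genes and 12 probes. By paralogue number, 11 probes belonged to anterior genes (numbers 1 to 3), 23 to central genes (4 to 8) and 16 to posterior genes (9 to 13). Probes with an empty name were outside the rule, also where their description mentioned a Hox gene.

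Stem cells were grown into embryoid bodies, aggregates in which the germ layers form in culture, and cells positive for a lineage marker were taken at successive stages. Bra cells, positive for Brachyury (gene T), were early mesoderm at day 4.5. Flk1 cells, positive for the receptor encoded by Kdr, were cardiac mesoderm at day 4.5, and Nkx2.5 cells were cardiac progenitors at day 7.5. Rex1 cells (gene Zfp42) were undifferentiated stem cells at day 0, and Nkx2.5 cells were also set directly against Bra and Flk1 cells. The labels name neither the strain nor the cell line nor the way cells were isolated. Every pair was measured once, without replicate or dye exchange, which leaves the values without a spread over samples and without a test. Rex1 RNA was always in the Cy3 channel (3 arrays) and Nkx2.5 RNA always in the Cy5 channel (3 arrays).

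Hox genes encode transcription factors that give cells their position along the body axis. Within a cluster the genes lie in the order in which they are switched on and in which their domains follow each other from head to tail, so that anterior genes come on before posterior ones. In embryonic stem cells the clusters are held by Polycomb repression over CpG-rich DNA, retinoic acid and Wnt signals open them from the anterior end, and in the heart the anterior members Hoxb1 and Hoxa3 mark part of the second heart field.

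Promoters are shown for 4 members, to give the sequence around the starts of genes in these clusters. Hoxb4 had a pair of probes that stayed within 0.19 of 0 on all 5 arrays, and Hoxd13, Hoxd12 and Hoxa11 each had a probe that departed by a log2 ratio of 1 on an array. The sequences run 5' to 3' on the gene's own strand, are from RefSeq on build GRCm38.p6, and have CG dinucleotides in capitals. They lie at chr11:96318017-96318316 (plus strand), chr2:74667975-74668274 (plus), chr2:74674763-74675062 (plus) and chr6:52245761-52246060 (minus), each from 250 bases before the gene's start to 50 bases after it.
Hoxb4: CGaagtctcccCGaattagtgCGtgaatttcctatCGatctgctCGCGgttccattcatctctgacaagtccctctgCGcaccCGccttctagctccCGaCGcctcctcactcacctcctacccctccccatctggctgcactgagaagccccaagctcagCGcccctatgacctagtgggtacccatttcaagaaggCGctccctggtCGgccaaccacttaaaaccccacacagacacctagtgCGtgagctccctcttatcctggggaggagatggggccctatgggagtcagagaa
Hoxd13: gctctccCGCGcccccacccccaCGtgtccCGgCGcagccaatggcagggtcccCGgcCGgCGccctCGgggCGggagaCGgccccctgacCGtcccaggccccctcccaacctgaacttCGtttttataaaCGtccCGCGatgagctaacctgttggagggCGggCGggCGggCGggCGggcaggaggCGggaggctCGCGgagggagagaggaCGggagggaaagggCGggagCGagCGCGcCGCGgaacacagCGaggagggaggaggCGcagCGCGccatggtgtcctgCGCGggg
Hoxd12: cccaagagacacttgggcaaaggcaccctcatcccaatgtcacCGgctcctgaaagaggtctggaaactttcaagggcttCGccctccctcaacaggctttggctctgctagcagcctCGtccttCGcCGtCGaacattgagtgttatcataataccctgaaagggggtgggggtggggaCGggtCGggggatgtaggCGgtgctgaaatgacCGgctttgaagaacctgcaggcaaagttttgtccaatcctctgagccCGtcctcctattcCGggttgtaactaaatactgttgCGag
Hoxa11: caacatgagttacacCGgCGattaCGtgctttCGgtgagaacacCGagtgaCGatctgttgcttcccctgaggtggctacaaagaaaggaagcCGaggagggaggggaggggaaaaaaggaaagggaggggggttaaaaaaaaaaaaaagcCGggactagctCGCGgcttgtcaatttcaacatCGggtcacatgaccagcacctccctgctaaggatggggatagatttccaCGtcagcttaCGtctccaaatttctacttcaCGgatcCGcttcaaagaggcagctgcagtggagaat

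The Hoxd13 window held 37 CpG dinucleotides, the Hoxa11 window 15, the Hoxb4 window 14 and the Hoxd12 window 13. Of all promoters 94.4% held fewer than Hoxd13, but only 65.4% fewer than Hoxa11, 63.7% fewer than Hoxb4 and 62.1% fewer than Hoxd12. Of the windows shown, Hoxd13 alone was thus among the most CpG-rich promoters. Over 24 promoters of 22 member genes in the RefSeq table the median was 14.5 CpG and 57.7% GC, against 7 CpG and 52.7% GC over all 32841 promoters of the same length. CpG counts ran from 4, at Hoxd4, Hoxa9 and an upstream start of Hoxd11, to 45 at Hoxa13. The retinoic acid receptor half-site AGGTCA was found on either strand in 29.2% of the Hox promoters and 16.3% of all promoters. The HOX-PBX composite motif TGATTGAT occurred in 2 Hox promoters, those of Hoxa2 and Hoxd11 (8.33%), and in 0.746% of all promoters. The CDX motif TTTAT was present in 37.5% of the Hox promoters and 40% of all promoters. Its overlap with the TATA box sequence TATAAA, whose reverse complement contains it, was not removed, and TATAAA itself was in 16.7% of the Hox promoters and 13.6% of all promoters. These matches describe the letters in the window and say nothing of binding.

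A log2 ratio below is of background-corrected, loess-normalised signals, with the population named first on top. Each comparison had a pair of readings, one on the array of that pair and another from the other arrays that connect the same populations. Flk1 over Bra had no array of its own and was read through Rex1 and, separately, through Nkx2.5. A probe was called higher or lower where both readings reached 1 in size in the same direction and the brighter population exceeded percentile 95 of 96 negative control spots on at least 1 array. Signals are given as scanned, before the dyes were scaled to each other, so that their quotient is not the log2 ratio. Going round a closed triangle of arrays should return to 0, and the gap gave an average error of 0.244 for 1 array over all probes and 0.290 over Hox probes. The sort markers behaved unevenly: Zfp42 was called lower in Bra (-1.74, then -1.19 by the other arrays), Flk1 (-1.76, -1.18) and Nkx2.5 cells (-1.68, -2.25) over Rex1 cells. T had 1.07 and 0.73 in Bra cells, Kdr 0.68 and 0.64 in Flk1 cells and Nkx2-5 0.53 and 0.91 in Nkx2.5 cells, each over Rex1 cells and each short of the rule.

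Position on the array moved with the ratios. Blocks of spots lie in 12 rows, and rows 11 and 12 held 4774 probes, 8 of them Hox members. There 7.06% of probes were called higher in Bra, 3.81% in Flk1 and 13.6% in Nkx2.5 cells over Rex1 cells, against 0.12%, 0.141% and 0.586% in rows 1 to 10. The median log2 ratios in rows 11 and 12 were 0.35, 0.39 and 0.31 in these comparisons, against -0.04 in each of them in rows 1 to 10. By the other arrays they were 0.16, 0.12 and 0.56, against -0.02, -0.02 and -0.06 in rows 1 to 10. In Nkx2.5 over Rex1 cells the reading by the other arrays was thus raised further in rows 11 and 12 than that of the pair's own array. In rows 11 and 12 the mean Cy3 background was 8825 against 7382 in rows 1 to 10, and the scanner marked 7.01% of spots as Bad against 1.56%. These rows held 337 of the 366 probes called higher in Bra cells, 182 of 216 in Flk1 cells and 651 of 792 in Nkx2.5 cells over Rex1 cells. The 8 Hox probes there were those of Hoxb13 and Hoxd12 in row 11 and of Hoxa7, Hoxc8, Hoxc9, Hoxd1 and Hoxd4 and a Hoxc6 probe in row 12.

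**Figure D1:**
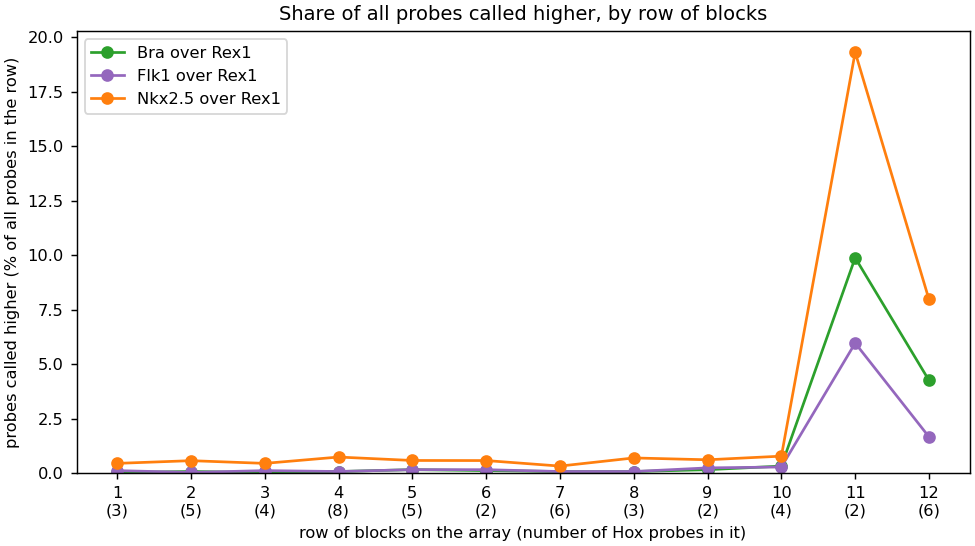
Share of all probes called higher over Rex1 (vertical axis, percent of the probes in that row) by row of blocks on the array (horizontal axis, with the number of Hox probes described in each row in brackets), 1 line per comparison. The share stays low in rows 1 to 10 and is highest in row 11, which holds 2 Hox probes, and then in row 12, which holds 6.

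None of the 50 Hox probes met the rule in any of the 6 comparisons. Over Rex1 cells 0 of 50 were called higher in Bra (1.27% of all probes), in Flk1 (0.749%) and in Nkx2.5 cells (2.75%), and 0 were called lower in Bra (0.253%), Flk1 (0.295%) and Nkx2.5 cells (0.749%). The count was also 0 in Nkx2.5 over Bra cells (0.319% of all probes higher, 0.0728% lower), in Nkx2.5 over Flk1 cells (0.34% higher, 0.101% lower) and in Flk1 over Bra cells (0.0173% higher, 0.00347% lower). At these shares of all probes, a list of 50 probes would hold few calls or none, so a count of 0 does not set the Hox probes apart. No p-value can be given for these counts, since each pair has 1 array. Of the 50 Hox probes 32 stayed within a log2 ratio of 0.5 on all 5 arrays (64%, against 61.8% of all probes), and 45 stayed within 1 (90%, against 91.3%). In RNA from many cells, fewer cells that express a gene and less RNA in each of them cannot be told apart.

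**Figure D2:**
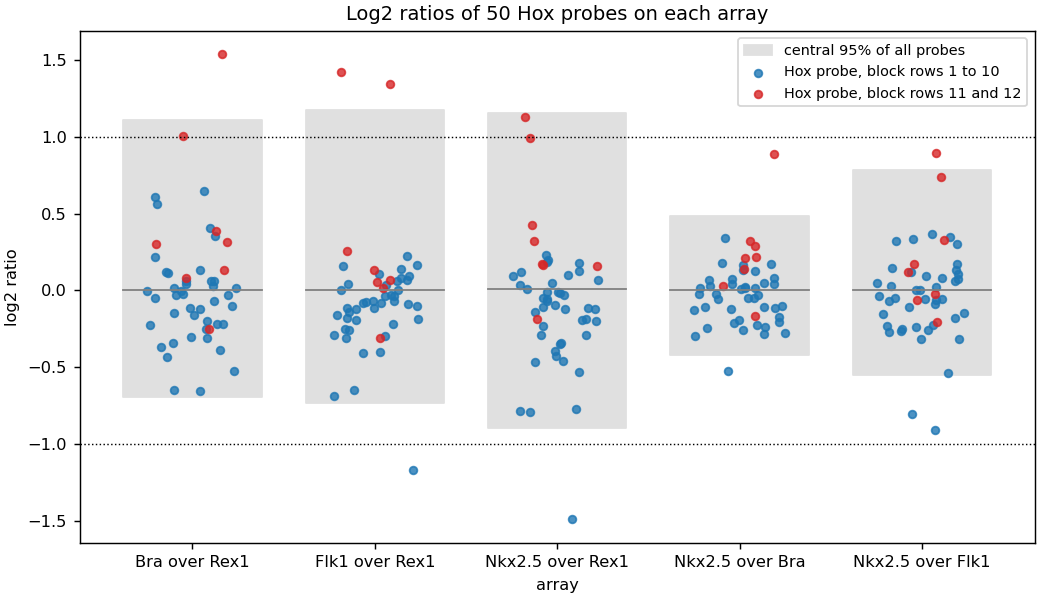
Log2 ratio (vertical axis) of the 50 Hox probes on each of the 5 arrays (horizontal axis), with the grey box spanning the central 95% of all probes, a line at their median and dotted lines at 1 and -1. The Hox probes above 1 all lie in rows 11 and 12 of blocks (red), and most of the others lie inside the grey box.

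Median Hox ratios stayed close to 0 on every array. They were -0.01 in Bra, -0.07 in Flk1 and -0.06 in Nkx2.5 cells over Rex1 cells, where all probes had 0.00, 0.00 and 0.01. The Hox median was -0.01 for Nkx2.5 over Bra, -0.03 for Nkx2.5 over Flk1 and -0.03 for Flk1 over Bra, with 0.00 for all probes in each. The spread of the Hox probes was close to that of the array: the SD over probes in Bra, Flk1 and Nkx2.5 over Rex1 cells was 0.39, 0.39 and 0.41 for Hox probes and 0.43, 0.44 and 0.48 for all probes. In these 3 comparisons, 7 of the 8 Hox probes in rows 11 and 12 were above 0 each time, against 16, 13 and 12 of the 42 in rows 1 to 10. The 8 probes had medians of 0.31, 0.10 and 0.25 and the other 42 had -0.04, -0.09 and -0.11. The Hox medians over Rex1 were thus higher in rows 11 and 12 than in rows 1 to 10, as those of all probes were. All probes in rows 11 and 12 had 0.35, 0.39 and 0.31, so in Flk1 cells the Hox median of 0.10 was well below theirs.

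The clusters were compared by their medians. In Bra over Rex1 cells the cluster medians were -0.07 for HoxA, -0.03 for HoxB, 0.08 for HoxC and 0.07 for HoxD. In Flk1 over Rex1 cells they were -0.08, -0.09, -0.09 and 0.02 in the same cluster order, and in Nkx2.5 over Rex1 cells -0.10, -0.16, 0.10 and 0.02. In Nkx2.5 over Bra cells the medians ran from -0.05 in HoxA to 0.02 in HoxD, and by the other arrays from -0.15 in HoxB to -0.06 in HoxC. Nkx2.5 over Flk1 cells gave -0.11 for HoxA, 0.02 for HoxB, -0.02 for HoxC and 0.10 for HoxD. The cluster median farthest from 0 on the 5 arrays was -0.16, for HoxB in Nkx2.5 over Rex1 cells, where the other arrays gave -0.07. By the other arrays the medians over Rex1 cells ran from -0.26 for HoxA to 0.13 for HoxD, both in Nkx2.5 cells.

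The order of the paralogues was examined because Hox genes open from the anterior end. Anterior probes had medians of 0.01 in Bra, 0.03 in Flk1 and -0.19 in Nkx2.5 cells over Rex1 cells. Central probes had -0.01, -0.09 and -0.03 in these comparisons, and posterior probes had -0.09, -0.07 and -0.03. Between stages, Nkx2.5 over Bra cells gave 0.01 for anterior, 0.01 for central and -0.05 for posterior probes, and Nkx2.5 over Flk1 cells gave 0.07, -0.06 and -0.06. The medians stepped down from anterior to posterior numbers in Bra over Rex1 cells on the array of the pair, but by the other arrays they were -0.05, -0.11 and 0.05, with the posterior probes highest. No order from anterior to posterior was thus shared by both readings there, and on all 5 arrays the medians lay between -0.19 and 0.07.

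By single paralogue number, medians beyond 0.5 in size over Rex1 were limited to numbers 11 and 12. Number 12 was the Hoxd12 probe alone, with 1.01 in Bra, 1.42 in Flk1 and 0.43 in Nkx2.5 cells over Rex1 cells. Number 11, the mean of 1 probe each of Hoxa11 and Hoxd11, had -0.19, -0.93 and -0.20 in these comparisons. Number 1, here the probes of Hoxb1 and Hoxd1, had -0.02, 0.24 and -0.26, and number 13, with 5 probes, had -0.22, -0.03 and -0.12.

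**Figure D3:**
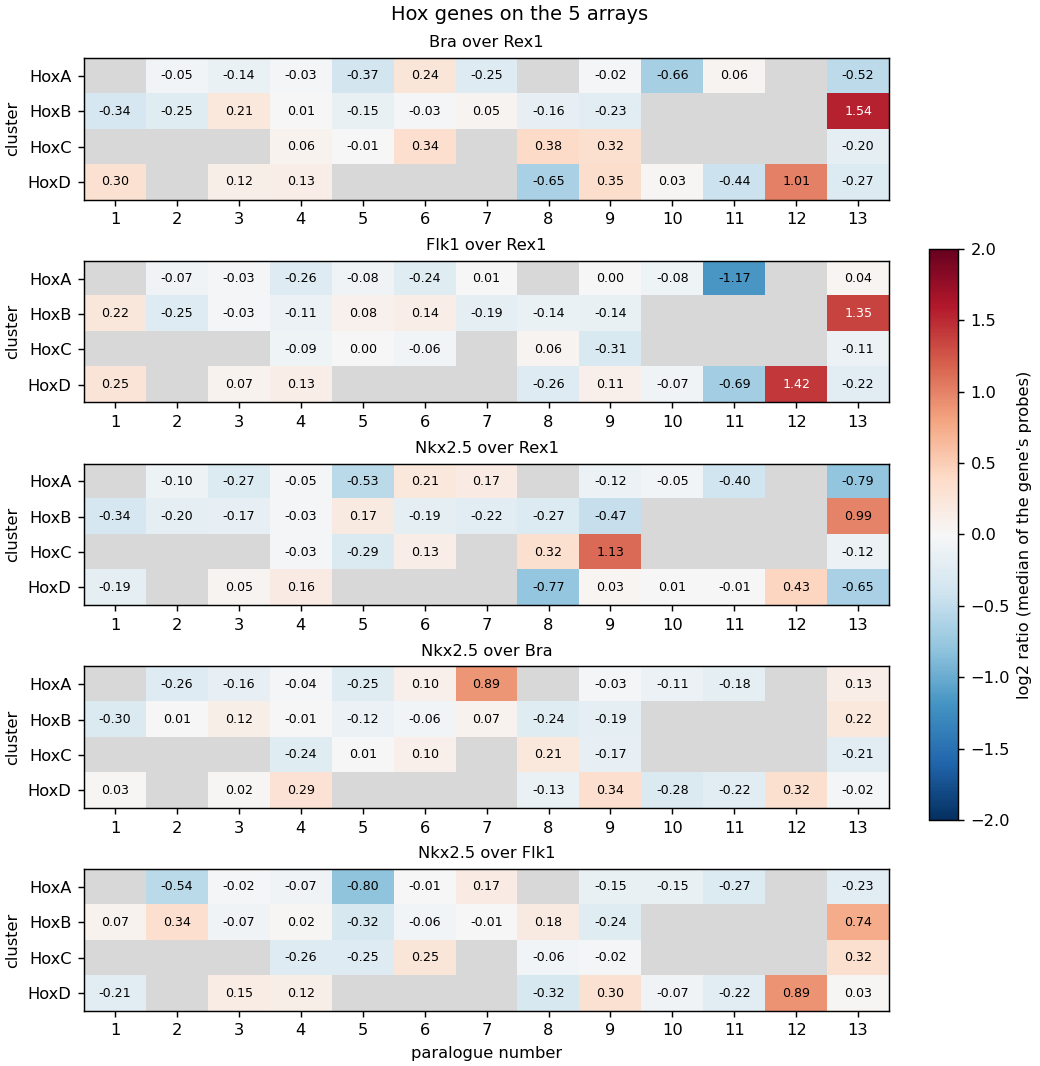
Log2 ratio on each array for each of the 35 Hox genes, by cluster (rows) and paralogue number (columns), as the median of the gene's probes, with blue below 0, red above 0 and grey where no value is given. No cluster is of 1 colour throughout on any array, and the strongest squares are Hoxb13, Hoxd12, Hoxc9 and Hoxa11, each of 1 probe.

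By the array of the pair alone, 2 Hox probes passed as higher in Bra over Rex1 cells (3.16% of all probes), 2 in Flk1 over Rex1 cells (3.43%) and 1 in Nkx2.5 over Rex1 cells (3.47%). By that measure 1 passed as lower in Flk1 over Rex1 cells (0.804%) and 1 in Flk1 over Bra cells (0.731%, through Rex1). In the remaining directions 0 passed, where 0.593% of all probes were lower in Bra and 1.63% in Nkx2.5 over Rex1 cells, 0.454% higher and 0.139% lower in Nkx2.5 over Bra cells, 1.32% higher and 0.225% lower in Nkx2.5 over Flk1 cells and 0.811% higher in Flk1 over Bra cells. These values came from the 4 genes Hoxb13, Hoxd12, Hoxc9 and Hoxa11, and with a dim Hoxd13 probe 5 probes reached a log2 ratio of 1 in size on an array, none by both readings.

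Hoxb13, which acts in the tail and prostate, had signals of 2779.5 in Bra against 387.5 in Rex1 cells, 3963 in Flk1 against 1638.5 in Rex1 cells and 3606.5 in Nkx2.5 against 1637 in Rex1 cells. Its readings were 1.54 and 0.78 in Bra, 1.35 and 0.26 in Flk1 and 0.99 and 1.92 in Nkx2.5 cells over Rex1 cells. It was thus high in all 3 pairs with Rex1 without both readings reaching 1 in any, it lies in row 11, and its spot was marked Bad in Bra over Rex1. With offset 10 or median centring in place of the settings used, its first reading in Nkx2.5 over Rex1 cells was 1.02 or 1.01 and it was called higher there. Nkx2.5 over Bra cells gave 0.22 and Nkx2.5 over Flk1 cells 0.74 for Hoxb13.

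Hoxd12, a digit-patterning gene also in row 11, had a signal of 0 in Rex1 cells on all 3 arrays, against 1740 in Bra, 1498 in Flk1 and 481.5 in Nkx2.5 cells on these arrays. Its readings over Rex1 cells were 1.01 and 0.11 in Bra, 1.42 and -0.47 in Flk1, and 0.43 and 1.82 in Nkx2.5 cells. The spot was marked Bad on 4 arrays, and in Nkx2.5 over Flk1 cells the readings, 0.89 and -0.99, had opposite signs. No fold is given, since the signals of the brighter populations lay at or under the limit set for Rex1.

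Hoxc9, which specifies thoracic motor neurons, had 2272.5 in Nkx2.5 against 961.5 in Rex1 cells, with readings of 1.13 and -0.09. In Bra over Rex1 cells it had 0.32 and in Flk1 over Rex1 cells -0.31, so only 1 array placed it high, and it lies in row 12. Hoxa11, a gene of the forearm, kidney and uterus, was the only member well above background that reached -1. It had 1509.5 in Flk1 against 2392.5 in Rex1 cells, with readings of -1.17 and -0.12. Its other ratios were 0.06 in Bra and -0.40 in Nkx2.5 cells over Rex1 cells, and -0.18 and -0.27 in Nkx2.5 cells over Bra and over Flk1 cells. In Flk1 over Bra cells Hoxa11 read -1.23 through Rex1 and 0.10 through Nkx2.5, so the low value rested on the array of Flk1 and Rex1. The highest members in Flk1 over Bra cells were Hoxa10 (0.58 through Rex1, 0.04 through Nkx2.5), Hoxb1 (0.57, -0.37) and Hoxa13 (0.57, 0.36). After Hoxa11 the lowest were a Hoxc6 probe (-0.80, -0.11) and a Hoxa6 probe (-0.74, -0.04), so of these 5 probes Hoxb1 alone had readings of opposite sign and none reached 1.

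Hoxd13, the last gene of HoxD and a digit gene, had a pair of probes that parted on 1 array. Probe AGmmB250214 had 6 in Nkx2.5 against 1201.5 in Rex1 cells, with a log2 ratio of -1.49 and -0.41 by the other arrays. It was not well above background in any channel of the 5 arrays and was marked Bad on that one. The other Hoxd13 probe, AGmmB140618, was well above background throughout and had -0.22 in Bra, -0.03 in Flk1 and 0.20 in Nkx2.5 cells over Rex1 cells, and 0.01 and 0.11 in Nkx2.5 cells over Bra and over Flk1 cells. The low value was therefore not repeated by the brighter probe of the gene.

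**Figure D4:**
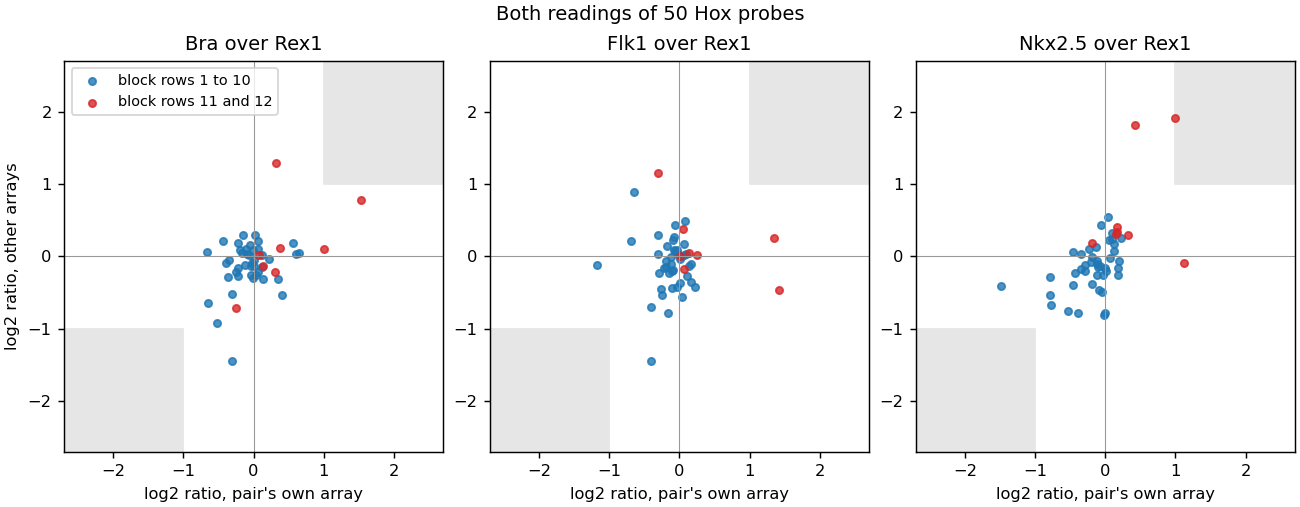
For the 50 Hox probes in the 3 comparisons with Rex1, the log2 ratio from the pair's own array (horizontal axis) against that from the other arrays (vertical axis), with the zones of a call in grey. No point enters a grey zone, the nearest being Hoxb13 in Nkx2.5 over Rex1 at 0.99 and 1.92, and the red points, in rows 11 and 12 of blocks, hold all values above 1 on either axis.

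Among the anterior genes, Hoxb1, which marks a hindbrain segment and part of the second heart field, had -0.34 in Bra, 0.22 in Flk1 and -0.34 in Nkx2.5 cells over Rex1 cells, and -0.30 and 0.07 in Nkx2.5 cells over Bra and over Flk1 cells. Hoxd1, of the same number, had 0.30 in Bra, 0.25 in Flk1 and -0.19 in Nkx2.5 cells over Rex1 cells, and 0.03 and -0.21 in Nkx2.5 cells over Bra and over Flk1 cells. Neither went beyond 0.34 in size on any array. By the other arrays Hoxb1 had -0.05 in Bra, -0.42 in Flk1 and -0.17 in Nkx2.5 cells over Rex1 cells, and Hoxd1 had -0.21, 0.02 and 0.19. The sign was thus not shared for Hoxb1 in Flk1 cells or for Hoxd1 in Bra and Nkx2.5 cells. Hoxa2, which gives the second pharyngeal arch its identity, had -0.05 in Bra, -0.07 in Flk1 and -0.10 in Nkx2.5 cells over Rex1 cells, and -0.26 and -0.54 in Nkx2.5 cells over Bra and over Flk1 cells, with -0.03 by the other arrays for the last of these. Hoxb2, a gene of the hindbrain, had -0.25 in Bra, -0.25 in Flk1 and -0.20 in Nkx2.5 cells over Rex1 cells, and 0.01 and 0.34 in Nkx2.5 cells over Bra and over Flk1 cells. On the arrays of the pairs the number 2 genes lay below 0 over Rex1 cells in all 3 populations. By the other arrays Hoxa2 had 0.16 in Bra, 0.44 in Flk1 and -0.46 in Nkx2.5 cells, and Hoxb2 had -0.21, -0.54 and -0.08, so for Hoxa2 the sign was shared in Nkx2.5 cells alone.

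Hoxa3, needed for the thymus and parathyroid, had probe ratios of 0.11 and -0.39 for Bra over Rex1, 0.16 and -0.22 for Flk1 over Rex1, -0.35 and -0.19 for Nkx2.5 over Rex1, -0.21 and -0.11 for Nkx2.5 over Bra, and 0.00 and -0.04 for Nkx2.5 over Flk1. Hoxb3 had 0.41 and 0.01 for Bra over Rex1, -0.10 and 0.03 for Flk1 over Rex1, -0.46 and 0.12 for Nkx2.5 over Rex1, 0.07 and 0.17 for Nkx2.5 over Bra, and -0.26 and 0.12 for Nkx2.5 over Flk1. Hoxd3, which shapes the first neck vertebrae, had 3 probes, with -0.10, 0.12 and 0.65 for Bra over Rex1, 0.07, 0.17 and -0.04 for Flk1 over Rex1, 0.12, 0.05 and -0.06 for Nkx2.5 over Rex1, 0.08, 0.02 and -0.10 for Nkx2.5 over Bra, and 0.09, 0.15 and 0.37 for Nkx2.5 over Flk1. The Hoxd3 probes differed by 0.75 in Bra over Rex1 cells and by 0.27 or less elsewhere, so the value of 0.65 was that of 1 probe in 3.

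Of the central genes, Hoxb4, known for its effect on blood stem cells, stayed near 0. Its probes had -0.00 and 0.01 for Bra over Rex1, -0.04 and -0.19 for Flk1 over Rex1, 0.07 and -0.12 for Nkx2.5 over Rex1, -0.02 and 0.01 for Nkx2.5 over Bra, and 0.02 and 0.03 for Nkx2.5 over Flk1. Their signals were 10982 and 4054 in Bra against 7630.5 and 2478.5 in Rex1 cells, all well above background. In Nkx2.5 against Rex1 cells they had 11264 and 3977 against 8728 and 3217.5, so Hoxb4 was measured in all populations and no ratio exceeded 0.19 in size. Its promoter, shown above, is also close to the Hox median in CpG content.

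Hoxa4 had 4 probes, with -0.12, 0.22, 0.06 and -0.30 for Bra over Rex1, -0.12, 0.09, -0.65 and -0.40 for Flk1 over Rex1, -0.07, 0.09, -0.02 and -0.79 for Nkx2.5 over Rex1, 0.04, 0.12, -0.12 and -0.28 for Nkx2.5 over Bra, and -0.06, 0.06, -0.91 and -0.09 for Nkx2.5 over Flk1. They spread by 0.40 to 0.97 on an array, and in Nkx2.5 over Flk1 cells the probe at -0.91 read 0.63 by the other arrays. That probe also had the value of -0.65 in Flk1 over Rex1 cells, where the other arrays gave 0.89. Hoxc4 had 0.06 in Bra, -0.09 in Flk1 and -0.03 in Nkx2.5 cells over Rex1 cells, and -0.24 and -0.26 in Nkx2.5 cells over Bra and over Flk1 cells. Hoxd4, a retinoic acid target of the neck vertebrae in row 12, had 0.13 in Bra, 0.13 in Flk1 and 0.16 in Nkx2.5 cells over Rex1 cells, and 0.29 and 0.12 in Nkx2.5 cells over Bra and over Flk1 cells. The number 4 genes of all 4 clusters were measured, and none was called.

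Hoxa5, needed for lung and for the neck-to-chest boundary, had -0.37 in Bra, -0.08 in Flk1 and -0.53 in Nkx2.5 cells over Rex1 cells, and -0.25 and -0.80 in Nkx2.5 cells over Bra and over Flk1 cells. Hoxb5 had -0.15 in Bra, 0.08 in Flk1 and 0.17 in Nkx2.5 cells over Rex1 cells, and -0.12 and -0.32 in Nkx2.5 cells over Bra and over Flk1 cells, and Hoxc5 had -0.01 for Bra over Rex1, 0.00 for Flk1 over Rex1, -0.29 for Nkx2.5 over Rex1, 0.01 for Nkx2.5 over Bra and -0.25 for Nkx2.5 over Flk1. All 3 genes of this number had values below 0 on the array of Nkx2.5 over Flk1 cells, where the other arrays gave -0.46 for Hoxa5, 0.10 for Hoxb5 and -0.30 for Hoxc5. Hoxa6 had probe ratios of -0.07 and 0.56 for Bra over Rex1, -0.30 and -0.18 for Flk1 over Rex1, 0.19 and 0.23 for Nkx2.5 over Rex1, 0.16 and 0.04 for Nkx2.5 over Bra, and -0.11 and 0.08 for Nkx2.5 over Flk1. Hoxb6 had -0.03 in Bra, 0.14 in Flk1 and -0.19 in Nkx2.5 cells over Rex1 cells, and -0.06 and -0.06 in Nkx2.5 cells over Bra and over Flk1 cells. Hoxc6, a gene of the upper thorax and forelimb level, had 0.08 and 0.61 for Bra over Rex1, 0.07 and -0.19 for Flk1 over Rex1, 0.16 and 0.10 for Nkx2.5 over Rex1, 0.14 and 0.06 for Nkx2.5 over Bra, and 0.33 and 0.17 for Nkx2.5 over Flk1, where the probe at 0.61 read 0.04 by the other arrays.

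Hoxa7, a trunk gene in row 12, gave the highest Hox value in Nkx2.5 over Bra cells. It had signals of 8500 in Nkx2.5 against 6089.5 in Bra cells, with readings of 0.89 and 0.42. Over Rex1 cells it had -0.25 in Bra, 0.01 in Flk1 and 0.17 in Nkx2.5 cells, and Nkx2.5 over Flk1 cells gave 0.17. Hoxb7 had probe ratios of -0.03 and 0.13 for Bra over Rex1, -0.29 and -0.08 for Flk1 over Rex1, -0.29 and -0.14 for Nkx2.5 over Rex1, -0.03 and 0.18 for Nkx2.5 over Bra, and -0.06 and 0.05 for Nkx2.5 over Flk1. Hoxb8, a gene of trunk and of myeloid cells, had -0.11 and -0.22 for Bra over Rex1, -0.16 and -0.11 for Flk1 over Rex1, -0.43 and -0.11 for Nkx2.5 over Rex1, -0.53 and 0.05 for Nkx2.5 over Bra, and 0.35 and 0.00 for Nkx2.5 over Flk1. The Hoxb8 value of -0.53 in Nkx2.5 over Bra cells was the lowest Hox value of that pair and came from 1 of its 2 probes.

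Hoxd8 was low by both readings over Rex1 cells in Bra and in Nkx2.5 cells. It had signals of 2446 in Bra against 2120 in Rex1 cells and of 1662 in Nkx2.5 against 1978 in Rex1 cells, well above background in each. Its readings were -0.65 and -0.65 in Bra, and -0.77 and -0.68 in Nkx2.5 cells over Rex1 cells. Both pairs agreed within 0.10 and both stayed short of the call size of 1. The pairs share the arrays that connect Bra, Rex1 and Nkx2.5 cells, so they are not separate checks. In Flk1 over Rex1 cells it had -0.26, in Nkx2.5 over Bra cells -0.13 and in Nkx2.5 over Flk1 cells -0.32. Hoxc8, which patterns the lower thorax and forelimb motor neurons and was well above background on 0 of 3 Rex1 arrays, with Rex1 signals of 688, 672 and 472.5, had 0.38 in Bra, 0.06 in Flk1 and 0.32 in Nkx2.5 cells over Rex1 cells, and 0.21 and -0.06 in Nkx2.5 cells over Bra and over Flk1 cells. Its ratios over Rex1 cells are therefore set against signals below the limit of the negative controls.

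Among posterior genes, Hoxa9, a regulator of blood progenitors, had 3 probes that differed by 0.08 to 0.37 on an array. Their ratios were -0.02, -0.16 and 0.04 for Bra over Rex1, -0.31, 0.06 and 0.00 for Flk1 over Rex1, -0.12, -0.01 and -0.23 for Nkx2.5 over Rex1, -0.03, -0.05 and 0.03 for Nkx2.5 over Bra, and -0.15, -0.18 and 0.13 for Nkx2.5 over Flk1. Hoxb9 had -0.23 in Bra, -0.14 in Flk1 and -0.47 in Nkx2.5 cells over Rex1 cells, and -0.19 and -0.24 in Nkx2.5 cells over Bra and over Flk1 cells, and Hoxd9 had 0.35 for Bra over Rex1, 0.11 for Flk1 over Rex1, 0.03 for Nkx2.5 over Rex1, 0.34 for Nkx2.5 over Bra and 0.30 for Nkx2.5 over Flk1. The Hoxb9 value in Nkx2.5 cells over Rex1 cells, -0.47, was matched by -0.40 from the other arrays, and the Hoxd9 value of 0.34 in Nkx2.5 over Bra cells stood against -0.32 by the other arrays.

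Hoxa10, a gene of the lumbar region and uterus, had -0.66 in Bra, -0.08 in Flk1 and -0.05 in Nkx2.5 cells over Rex1 cells, and -0.11 and -0.15 in Nkx2.5 cells over Bra and over Flk1 cells. Its low value in Bra cells read 0.06 by the other arrays. Hoxd10 had 0.03 in Bra, -0.07 in Flk1 and 0.01 in Nkx2.5 cells over Rex1 cells, and -0.28 and -0.07 in Nkx2.5 cells over Bra and over Flk1 cells, and Hoxd11, which with Hoxa11 builds the forearm and kidney, had -0.44 for Bra over Rex1, -0.69 for Flk1 over Rex1, -0.01 for Nkx2.5 over Rex1, -0.22 for Nkx2.5 over Bra and -0.22 for Nkx2.5 over Flk1. The Hoxd11 value in Flk1 over Rex1 cells read 0.22 by the other arrays, so the low number 11 genes of that array were low by its own reading only. Hoxa13, a gene of digits and the urogenital tract, had -0.52 in Bra, 0.04 in Flk1 and -0.79 in Nkx2.5 cells over Rex1 cells, and 0.13 and -0.23 in Nkx2.5 cells over Bra and over Flk1 cells. Its readings in Bra over Rex1 cells, -0.52 and -0.92, and in Nkx2.5 over Rex1 cells, -0.79 and -0.29, shared their sign and did not reach 1 together. Hoxc13, a hair gene, had -0.20 in Bra, -0.11 in Flk1 and -0.12 in Nkx2.5 cells over Rex1 cells, and -0.21 and 0.32 in Nkx2.5 cells over Bra and over Flk1 cells.

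Where a gene had several probes, the probes measured how far a Hox ratio can be trusted. Over 11 genes with 26 probes, the gap between the highest and lowest probe on an array had a median of 0.19 and a maximum of 1.69, for Hoxd13 in Nkx2.5 over Rex1 cells. In 11 of 55 gene and array pairs the gap was at least 0.5. Round the triangle through Bra the gap reached 1 for 1 of 50 Hox probes, and round the triangle through Flk1 for 6 of 50, against 669 and 1248 of all 28845 probes. The SD of the gap was 0.42 for Hox and 0.40 for all probes through Bra, and 0.57 and 0.45 through Flk1. The Flk1 triangle thus closed less well for the Hox probes than for all probes.

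Most Hox probes gave signal above the negative controls in every population, the stem cells included. On all arrays of the population, 47 of 50 Hox probes (94%) were well above background in Bra, in Flk1 and in Nkx2.5 cells, and 43 (86%) in Rex1 cells. For all probes the shares were 88.2%, 88.8% and 90.4% in Bra, Flk1 and Nkx2.5 cells and 74.1% in Rex1 cells. Probes of odorant, vomeronasal and taste receptors, 887 in all, which these cells should not express, passed in 78.7%, 76.6% and 81.5% of cases in Bra, Flk1 and Nkx2.5 cells and in 61.7% in Rex1 cells. Passing the limit is therefore not evidence that a Hox gene was expressed. The probes not above it on every array of Bra, Flk1 and Nkx2.5 cells were those of Hoxc8 and Hoxd12 and the dim Hoxd13 probe. In Rex1 cells Hoxa11, Hoxb13, Hoxc9 and a Hoxa4 probe joined them, and Rex1 RNA was always in the Cy3 channel, whose background was the higher one.

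Genes that work with and upstream of Hox gave few calls. In each direction at most 2.75% of all probes were called, so lists of 9 or 25 genes would hold few calls or none. The low counts do not set these lists apart. The Hox cofactors Pbx, Meis and Pknox, which bind DNA together with Hox proteins, had 8 of 9 listed genes measured and none called in any comparison. Meis1 had 0.33 and Meis2 0.37 in Nkx2.5 over Rex1 cells, with 0.36 and 0.39 by the other arrays. Of 25 upstream regulators 23 were measured, and Fgf8, a signal of the primitive streak and of posterior growth, was the only one called. It was higher in Bra (2.36, then 1.72 by the other arrays) and Flk1 cells (1.84, 1.20) over Rex1 cells, and lower in Nkx2.5 over Bra cells (-1.17, -1.81).

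The Cdx genes, which open the central Hox genes, were not called. Cdx1 had -0.41 in Bra, 0.15 in Flk1 and 0.27 in Nkx2.5 cells over Rex1 cells, Cdx2 had 0.42, -0.02 and 0.01, and Cdx4 had -0.20, 0.49 and -0.13 in these comparisons. By the other arrays Cdx1 had 0.30, 0.31 and -0.17, Cdx2 had 0.31, -0.25 and 0.18, and Cdx4 had -0.06, -0.19 and 0.15. The sign was thus not shared for Cdx1 in Bra and Nkx2.5 cells or for Cdx4 in Flk1 and Nkx2.5 cells. Aldh1a2, the enzyme that makes retinoic acid, had -0.18 in Bra, -0.30 in Flk1 and -0.39 in Nkx2.5 cells over Rex1 cells. Cyp26a1, which breaks retinoic acid down, had 0.78 and 0.98 in Bra and 0.59 and 1.11 in Flk1 cells over Rex1 cells, short of the rule by 1 reading or both. Wnt8a, a Wnt signal of the primitive streak, had 0.98 and 0.94 in Bra over Rex1 cells, short of it too.

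Of 26 Polycomb and Trithorax genes, which keep Hox genes off or on, 24 were measured. Mtf2, a partner of the Polycomb methyltransferase at CpG-rich DNA, was the only one called, lower in Nkx2.5 over Rex1 cells (-1.17, then -1.35 by the other arrays). Of 14 genes next to the clusters 11 were measured, and Snx10, which lies beside HoxA, was called lower in Nkx2.5 over Rex1 cells (-1.19, -1.28). Of 10 ParaHox and related homeobox genes 9 were measured and none was called. In Nkx2.5 over Rex1 cells 0.749% of all probes were called lower, so lists of these lengths would hold few calls or none. The 50 Hox probes had 0 called values over the 6 comparisons.

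Marker lists are set beside the Hox values by their counts, with each listed gene read from its brightest probe alone. Of 17 pluripotency genes 4 were called lower in Bra (0.253% of all probes), 5 in Flk1 (0.295%) and 7 in Nkx2.5 cells (0.749%) over Rex1 cells. Of 14 cardiac genes 5 were called higher in Nkx2.5 over Rex1 cells, where 2.75% of all probes were. Of these 5, Myl7 and Myl4, light chains of heart muscle myosin, have their probes in row 12, and Isl1, Tnnt2 and Tnnc1 have theirs in rows 1 to 10. Of 13 primitive streak genes 2 were called higher in Bra (1.27% of all probes) and 2 in Flk1 cells (0.749%) over Rex1 cells. In Nkx2.5 over Bra cells 3 were called lower (0.0728% of all probes). The higher ones were Fgf8 and Sp5 each time, and the Sp5 probe lies in row 11 and was marked Bad on 2 arrays. Few markers of other cell types that use Hox genes were called: of 12 neural genes none was called in any comparison, and of 10 paraxial mesoderm genes only Uncx was called higher over Rex1 cells, in Bra and in Nkx2.5 cells, with its probe in row 12. Of 12 endoderm genes 4 and of 10 blood genes 4, globins among them, were called higher in Nkx2.5 over Rex1 cells (2.75% of all probes). Of these endoderm probes 3, Sox17, Afp and Spink1, lie in rows 11 and 12. Of 6 genes of posterior mesoderm and allantois none was called. At these shares of all probes, lists of 12, 10 or 6 genes would hold few calls or none. The low neural, paraxial and posterior counts therefore do not set those lists apart. The part of these other cells in the Hox values was not tested.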

How the data were processed

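RNA of 4 populations was compared pairwise on 5 two-colour oligonucleotide arrays of 30000 spots. Per the labels' protocols, column-purified total RNA was amplified with amino allyl nucleotides, and Cy3 or Cy5 was coupled to the product. The labels give the dye of each population, and every ratio is Cy5 over Cy3. Scanner software, gene model and genome build: not given in the sources used here.

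Deposited intensity values comprise, per the file headers, the median signal and the background of both channels. On testing, the signal had the background of its block subtracted, and the deposited ratio was the quotient of scaled signals. The deposited series table holds log2 values for 28524 probes, 49 of the 50 Hox probes described among them. Its columns equalled the log2 of the scanner ratio minus a constant, which settled scale and direction. Column medians over Rex1 were -0.0846 (Bra), -0.0599 (Flk1) and -0.0578 (Nkx2.5), and Nkx2.5 had -0.00732 over Bra and -0.0728 over Flk1.

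The foreground was rebuilt as signal plus background, corrected with normexp (offset 50) and normalised by loess on each array, giving control spots weight 0 (limma 3.58.1, R 4.3.3); Python 3.11.15 made the tables. Empty, control and quality check spots were dropped. Spots marked Bad were kept. The call rule was tested on simulated data. Hox symbols were matched to RefSeq, 21 probes by accession and 29 by symbol. The number of arrays limits precision.

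The members and lists were chosen with earlier results of these data known. Some genes that meet the member rule or belong to the lists are not reported here and are left out of all Hox and list counts, which therefore do not speak for every Hox probe on the array. Full values are given for the 3 highest and 3 lowest members of each comparison and for genes with several probes, and other Hox genes may be named. Lists cover Hox cofactors, upstream regulators, Polycomb and Trithorax genes, cluster neighbours, ParaHox genes and markers of the sort and of other cell types. A listed gene, sort markers included, was read from its probe of highest mean signal, and other probes of that gene were not counted. Hox members were counted by every probe, and the shares beside the counts are over all probes. Limits for dim Rex1 signals used channels normalised by loess and Aquantile and are open to dye bias. Alternatives were no background subtraction, offset 10, median centring, the series table, 1 reading alone, a stricter limit on dim probes, the brightest probe per gene, 1 loess curve per block, and leaving out rows 11 and 12 of blocks or probes marked Bad.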

Additional observations from a re-analysis of the deposited data

How the results depend on the processing

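The counts of called Hox probes were 0, and with the array of the pair alone they were 2 higher in Bra over Rex1 cells, 2 higher and 1 lower in Flk1 over Rex1 cells, 1 higher in Nkx2.5 over Rex1 cells and, through Rex1, 1 lower in Flk1 over Bra cells. At offset 10 and with median centring the count was 1 higher in Nkx2.5 over Rex1 cells, Hoxb13, whose ratio on the array of the pair was then 1.02 and 1.01. In the other settings the counts were 0. With no background subtraction that says little, since at most 3 of all 28845 probes were called in any direction of a comparison. With 1 loess curve per block, a setting that removes differences between blocks, 43 of all probes were called higher in Bra cells, 54 in Flk1 cells and 221 in Nkx2.5 cells over Rex1 cells. The curve per block, leaving out rows 11 and 12 and leaving out Bad probes were chosen after seeing the data. Over all settings the Hox median ran from -0.05 to 0.02 in Bra, from -0.09 to -0.02 in Flk1 and from -0.11 to -0.02 in Nkx2.5 cells over Rex1 cells. At percentile 99 of the negative controls, 47 Hox probes in Bra, 47 in Flk1, 46 in Nkx2.5 and 42 in Rex1 cells were above background on all arrays. No paired analysis was possible because each pair was hybridised once and there are no replicate numbers. Rex1 was always in Cy3 against Cy5, so dye and population cannot be told apart on those 3 arrays or in either reading of Nkx2.5 over Rex1 cells. The other-array readings of Bra and Flk1 over Rex1 cells set Cy3 signals against Cy3 signals, where a dye effect that is alike on the arrays cancels.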
